A study of Rattus norvegicus with 15 samples.

Results

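Hearts taken 12 h after the start of severe acute pancreatitis (SAP) were compared with hearts of sham-operated rats. The comparison rests on 10 of the 15 arrays of the series, 5 per group, which were assigned by sample title and source name. All animals were male SD (Sprague-Dawley) rats aged 8 to 10 weeks, and the labels give no genotype other than the strain. SAP had been started with sodium taurocholate, a bile salt, given at 5% and against the flow of the ducts that drain pancreas and bile. The sham group had sham surgery, for which neither an infused vehicle nor a time of collection is given. The other 5 arrays came from SAP hearts at 24 h. They shared the estimate of the spread, and their values are given only beside those at 12 h. Each group was described as 5 hearts, but no label names the chambers that were sampled. The series title and the extraction note name ischemia/reperfusion, the note also mice and other hours, and the design text a mouse array. The fields of each sample name SAP or sham rats and were followed.

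In severe pancreatitis digestive enzymes injure the pancreas itself, and the inflammation that follows reaches distant organs, among them the heart. Cytokines of the interleukin-6 family bind receptors that share the subunit Il6st and act through Jak kinases, Jak2 among them, on the transcription factor Stat3. Stat3 switches on acute-phase proteins, best known as products of the liver. A beating heart makes nearly all of its ATP in mitochondria, with fatty acids as the main fuel and glucose and lactate beside them. Its muscle cells also run a circadian clock that times many of their metabolic genes.

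Levels are log2 values of array signal, by its name the output of RMA, a background correction with quantile normalization, so a difference of 1 is a 2-fold change. Means are given with the SD over 5 arrays and differences with the standard error (SE) of the limma fit. Levels of different genes rest on different probes and were not set against each other. A gene was called when its adjusted p was under 0.05, and a gene with a mean under 6 in both groups is said to be near background, where a measured difference can be too small. Array medians lay between 5.90 and 5.98, and each array correlated with the rest of its own group at a mean of 0.992 to 0.993 in sham and 0.987 to 0.990 at 12 h. All 9 measured markers of ventricular cardiomyocytes were at or above 6, with Myl2, the ventricular myosin light chain, at 17.24 to 18.04 in each of the 10 arrays. Of 13 pancreatic acinar markers 1 was at or above 6 and none was called by limma, with 1 at an unadjusted p under 0.05 and 0 called with the trend and robust settings. Without the 4 arrays described next, 1 acinar marker was called higher and the list median was 0.21 in place of 0.08. Their list mean in all arrays was 4.49 to 4.66 in sham and 4.43 to 4.82 at 12 h.

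The arrays differed widely in atrial transcripts, within both groups. Myl4, the atrial myosin light chain, and Sln, the atrial calcium pump regulator sarcolipin, both exceeded 12 in sham replicates 2 and 3 and in SAP 12 h replicates 3 and 4. Myl4 was 14.96, 13.49, 16.16 and 15.14 in these 4 arrays and Sln 15.98, 13.46, 17.45 and 16.18. The mean of 6 atrial markers ran from 8.20 to 15.08 in sham and from 6.82 to 17.00 at 12 h, so the groups overlapped, and 0 of the 6 markers were called, 0 also at an unadjusted p under 0.05 and 0 with the trend and robust settings. Without these 4 arrays 1 of the 6 was called lower, and the list median was -1.02. Myl7 then read 13.08 to 13.90 in sham and 6.69 to 12.62 at 12 h. Sln read 6.70 to 8.28 in sham and 4.01 to 5.42 at 12 h, while the other markers overlapped. Leaving out these arrays therefore did not even out the atrial transcripts. Calls that were lost when these 4 arrays were left out, which leaves 3 arrays per group, are named with each gene group. Fewer arrays alone can lose a call, so a lost call need not mean a smaller difference. In RNA from whole tissue, fewer cells of a type and less RNA per cell cannot be told apart.

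**Figure D1:**
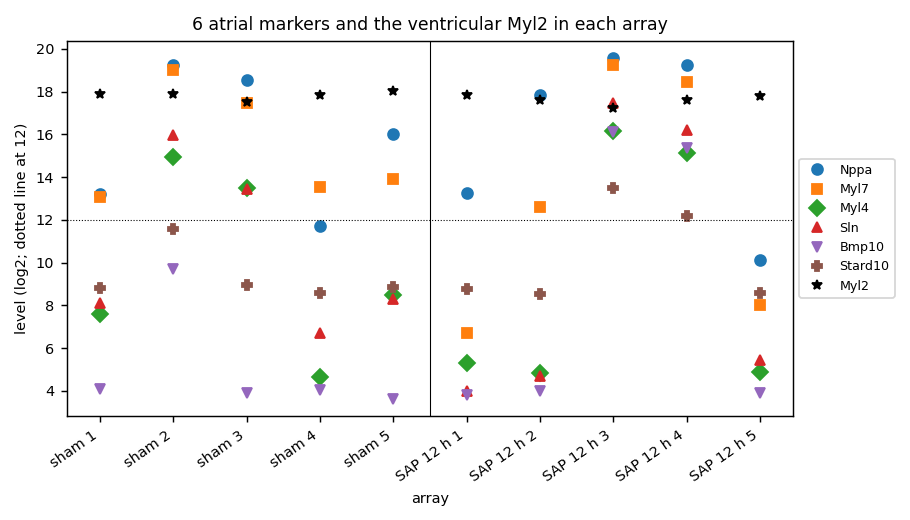
Level (log2) of 6 atrial markers and of the ventricular marker Myl2 in each sham and SAP 12 h array; the dotted line marks 12. Sham replicates 2 and 3 and SAP 12 h replicates 3 and 4 lie above 12 for Myl4 and Sln, while Myl2 stays between 17.24 and 18.04.

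Of 15037 named genes 868 were called, 403 higher and 465 lower at 12 h. This is 5.77% of all genes in either direction, 2.68% higher and 3.09% lower. At an unadjusted p under 0.05 there were 2681 genes. The median difference over all genes was 0.008 and the median SE 0.151. The called genes that differed at least 2-fold numbered 253, with 129 higher and 124 lower. For 810 genes (5.39%) the arrays of the groups did not overlap, and 601 of these were called; all SAP arrays lay above sham in 2.61% of genes and below in 2.78%. Among the 8129 genes at or above 6 in a group 833 (10.2%) were called, 4.82% higher and 5.43% lower, and among the 6908 near background 35. Most gene lists hold mainly genes at or above 6, and their counts are read against these larger shares. Without the 4 atrium-rich arrays 469 genes were called, so counts of lists were then smaller in general.

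**Figure D2:**
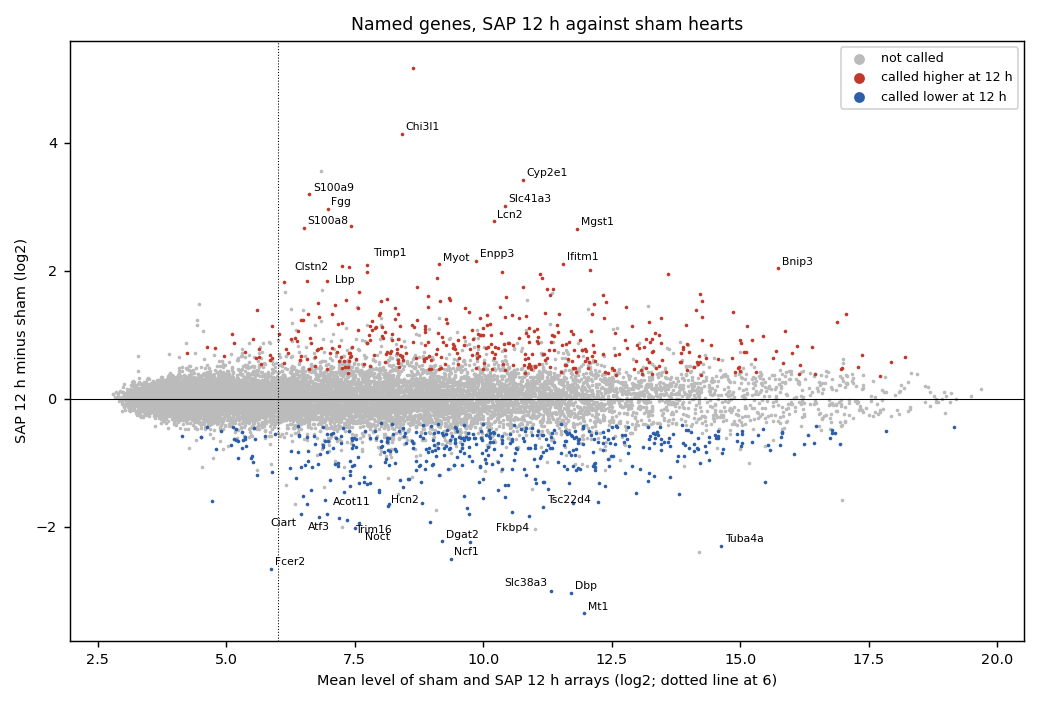
Difference between SAP 12 h and sham (log2) against the mean level of both groups (log2) for 15037 named genes, with calls in colour; labels mark the 15 genes that rose and the 15 that fell most among those whose arrays did not overlap, and the dotted line marks 6. Chi3l1 leads the labelled rises at 4.14 and Mt1 the falls at -3.36.

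Proteins that cells secrete in the acute-phase response gave the largest rises. Chi3l1, a chitinase-like glycoprotein, was at 5.94, 6.00, 6.91, 6.81 and 6.04 in sham replicates 1 to 5 and at 9.68, 10.40, 10.38, 10.88 and 11.08 at 12 h. The groups were far apart, with the lowest SAP array above the highest sham array, and the fold was 17.7 (4.14 ± 0.46 SE, adjusted p = 4.87e-05). Of 22 measured acute-phase genes 7 rose and none fell, while the list median was 0.09. The lipopolysaccharide-binding protein Lbp, which hands bacterial endotoxin to its receptor, read 5.73, 6.38, 6.82, 6.42 and 6.45 in sham and 8.04, 8.45, 9.41, 8.22 and 7.99 at 12 h. All SAP arrays exceeded all sham arrays, by 2.06 ± 0.28 SE on average. Lcn2, lipocalin 2, which takes up the iron carriers of bacteria, rose from 8.81 ± 0.41 to 11.59 ± 1.31. Its SAP arrays were uneven, from 9.93 in replicate 3 to 12.88 in replicates 1 and 2, but all lay above sham. Timp1, an inhibitor of matrix metalloproteinases, rose by 2.08 ± 0.35 SE, although sham replicate 3 stood at 7.87 against 6.29 to 6.51 in the other 4. Orm1, the lipid carrier orosomucoid 1, rose from 6.07 ± 0.47 to 8.78 ± 1.6, with SAP replicate 3 (6.23) inside the sham range.

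Serpina3n, a serine protease inhibitor, had the largest called difference of all genes and also the widest spread. Sham replicates read 7.14, 4.64, 4.57, 7.25 and 6.59, and SAP replicates 13.49, 9.64, 12.92, 13.61 and 6.38. SAP replicate 5 lay within the sham range and the other 4 far above it, for a mean difference of 5.17 ± 1.20 SE (adjusted p = 0.0154). The call was lost without the 4 atrium-rich arrays, at 2.84 and adjusted p = 0.429.

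Some receptor and kinase genes of the interleukin-6 family rose as well. Osmr, the oncostatin M receptor, was at 11.17 ± 0.13 in sham and 12.23 ± 0.32 at 12 h, and its partner subunit Il6st at 12.94 ± 0.05 and 13.51 ± 0.32. Jak2 had sham values of 10.36, 10.13, 10.29, 10.24 and 10.65 and SAP values of 11.41, 11.53, 11.44, 11.43 and 11.42. The SAP arrays of Jak2 were nearly identical to each other, and its rise of 1.11 ± 0.11 SE had an adjusted p of 3.42e-05. Stat3 rose by 0.93 ± 0.22 SE, led by SAP replicates 1 and 2 (13.87 and 14.36, against 13.27 to 13.35 in the other 3). Without sham replicate 1 its adjusted p was 0.0568 and without SAP 12 h replicate 1 it was 0.0527. The interleukin-4 receptor Il4r rose by 0.65 ± 0.14 SE. In all 6 of 25 measured members of this list rose and 1 fell, with 14 positive differences and a list median of 0.05. The differences of the list ran from -1.10 to 1.11, so it had no common direction. Il6st and Il4r lost the call without the atrium-rich arrays (adjusted p = 0.133 and 0.0971), and 3 rises and 1 fall were counted then.

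Stat3 and C/EBP factors bind motifs that were searched for in promoters of called genes of these and the next groups, from 250 bases before to 50 bases after the start and on both strands. The STAT palindrome, spelled TTC, any 3 bases and GAA, was in 1 of 11 promoters (Serpina3n), against 8.68% of all 27457. The C/EBP site, spelled TTGC, any 2 bases and AA, was in 3 of 6 (Lcn2, Orm1 and Cp, ceruloplasmin), against 10.5%. The genes were chosen with their values known, and 6 motifs were searched for in all. A promoter without a match says only that the letters are not in this window.

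Complement genes rose in both the early classical proteases and their inhibitor. C1s and C1r are the proteases of the first complement complex, C1qb is part of its recognition unit and Serping1 blocks the proteases. C1s was at 11.48, 11.97, 11.65, 11.61 and 11.43 in sham and at 12.72, 12.52, 13.85, 13.43 and 13.17 at 12 h, a rise of 1.51 ± 0.21 SE (adjusted p = 0.000303). C1qb rose by 1.25 ± 0.19 SE, Serping1 by 1.21 ± 0.21 and C1r by 0.85 ± 0.19, and none of these overlapped between the groups. Complement counted 6 rises and no fall among 21 measured genes, with a median of 0.54 and 19 positive differences. C1r lost its call without the atrium-rich arrays (adjusted p = 0.084), and 3 genes of the list were called then.

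In coagulation 5 of 22 genes rose and 1 fell (median 0.17). Fgg and Fga encode the gamma and alpha chains of fibrinogen, the clot protein. Fgg read 5.21, 6.09, 5.42, 6.09 and 4.63 in sham and 7.47, 8.05, 9.65, 8.61 and 8.49 at 12 h, so that it moved from near background to clearly above it (2.97 ± 0.50 SE). Fga rose by 0.93 ± 0.18 SE but stayed near background, at 5.99 ± 0.26. F13a1, which cross-links fibrin, rose by 1.74 ± 0.38 SE, and Vwf, the platelet-binding von Willebrand factor, by 1.11 ± 0.25. The single fall was F3, tissue factor, the trigger of coagulation, from 12.36 ± 0.43 to 11.25 ± 0.51. F13a1, Vwf and Fga lost their calls without the atrium-rich arrays (adjusted p = 0.0901, 0.161 and 0.131), as did 1 further member that is not named here, and 1 rise and 1 fall were counted then.

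Markers of myeloid cells were higher at 12 h. The calprotectin subunits S100a8 and S100a9, carried mainly by neutrophils, left the background range. S100a9 read 4.99, 5.59, 4.75, 4.44 and 5.30 in sham and 8.74, 8.59, 7.41, 6.93 and 9.38 at 12 h. S100a8 moved from 5.17 ± 0.32 to 7.84 ± 0.77, and both were lowest among the SAP hearts in replicates 3 and 4, which are atrium-rich. Mmp8, the neutrophil collagenase, rose by 1.38 ± 0.21 SE to 6.28 ± 0.45. With Lcn2 these were 4 rises among 14 neutrophil markers, of which 4 were at or above 6, and no marker fell. The list mean was 4.41 to 4.64 in sham and 4.95 to 5.60 at 12 h, without overlap. The 4 called genes are part of this mean and raise it, and a mean without them was not taken. None of the remaining markers was called.

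All 17 macrophage and monocyte markers had positive differences, with a median of 0.54, and 5 rose. Cd14, the endotoxin co-receptor, rose by 1.5 ± 0.23 SE and Fcer1g, the signalling chain of Fc receptors, by 0.92 ± 0.18. The mean of the list was 7.94 to 8.16 in sham and 8.32 to 9.16 at 12 h, again without overlap. Without the atrium-rich arrays 2 of the 17 were called and Fcer1g was not (adjusted p = 0.0576), while 7 were called with the atrial markers as a covariate. The part that these cells have in the acute-phase, complement and coagulation values above was not tested. None of the 17 T and NK cell markers was called by limma, 1 had an unadjusted p under 0.05 and 0 were called with the trend and robust settings.

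Of 25 chemokines and receptors 2 rose and 2 fell. Ccl6, a myeloid chemokine of rodents, rose from 10.39 ± 0.11 to 12.11 ± 0.73. Cxcl9 and Cxcl11, which interferon gamma induces and which attract T cells, fell by 1.42 ± 0.26 SE and 1.45 ± 0.28. Cxcl9 was at 6.70 to 7.98 in sham and at 5.66 to 6.47 at 12 h, with no overlap, whereas Cxcl11 overlapped at SAP replicate 1 (7.10) and sham replicate 3 (7.08). Among 25 genes of pattern recognition 3 rose and none fell, with Irak3, a brake on Toll-like receptor signalling, up by 1.30 ± 0.26 SE beside Cd14. These 3 were 12% of the list, against 5.77% of all genes and 10.2% of those at or above 6. Vcam1, an adhesion molecule of activated endothelium, rose by 1.27 ± 0.25 SE and was the only called gene of 19 in its list. In the list of NF-kB cytokines and inhibitors 1 of 21 was called and it was lower. Without the atrium-rich arrays the chemokine list had 1 rise and 2 falls, pattern recognition 2 rises and the NF-kB list no call.

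Interferon-stimulated genes mostly had negative differences. Irf7, the transcription factor that amplifies type I interferon, was at 8.56, 9.97, 6.97, 8.06 and 9.01 in sham and at 6.05, 5.94, 6.04, 6.94 and 7.45 at 12 h. Sham replicate 2 was highest and sham replicate 3 fell within the SAP range, and the difference was -2.03 ± 0.44 SE (adjusted p = 0.00977). Usp18, which turns the interferon receptor off, fell by 1.62 ± 0.35 SE and Ifit1, which binds viral RNA, by 1.65 ± 0.39. Altogether 4 of 27 fell and 1 rose, 6 of 27 differences were positive and the median was -0.60. The rise was Ifitm1, a membrane protein that hinders virus entry, from 10.51 ± 0.30 to 12.61 ± 0.32 (2.11 ± 0.18 SE, adjusted p = 6.35e-06). Ifit1 lost its call without the atrium-rich arrays (adjusted p = 0.0592), where 2 genes of the list fell, 1 rose and the median was -0.25. Of 15 class II antigen presentation genes none was called by limma, 7 had an unadjusted p under 0.05 and 1 was called with the trend and robust settings. Cd74, the invariant chain of class II molecules, was at 13.58 ± 0.28 in sham and 13.04 ± 0.27 at 12 h (adjusted p = 0.166).

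Ncf1, the p47phox organizer subunit of the phagocyte NADPH oxidase, fell while myeloid markers were higher. It read 10.83, 9.25, 10.96, 10.83 and 11.23 in sham and 7.99, 8.07, 8.19, 8.42 and 7.91 at 12 h (-2.50 ± 0.28 SE, adjusted p = 5.2e-05). The SAP arrays were tight, and sham replicate 2 was the lowest of its group. It was the 1 called gene of 10 in its list. Fcer2, the low-affinity IgE receptor of B cells, had the same low sham replicate, with 7.81, 5.35, 7.95, 7.26 and 7.67 in sham. At 12 h it was near background, at 4.07 to 5.01, and it was the only called gene of 9 B and plasma cell markers, of which 1 was at or above 6.

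**Figure D3:**
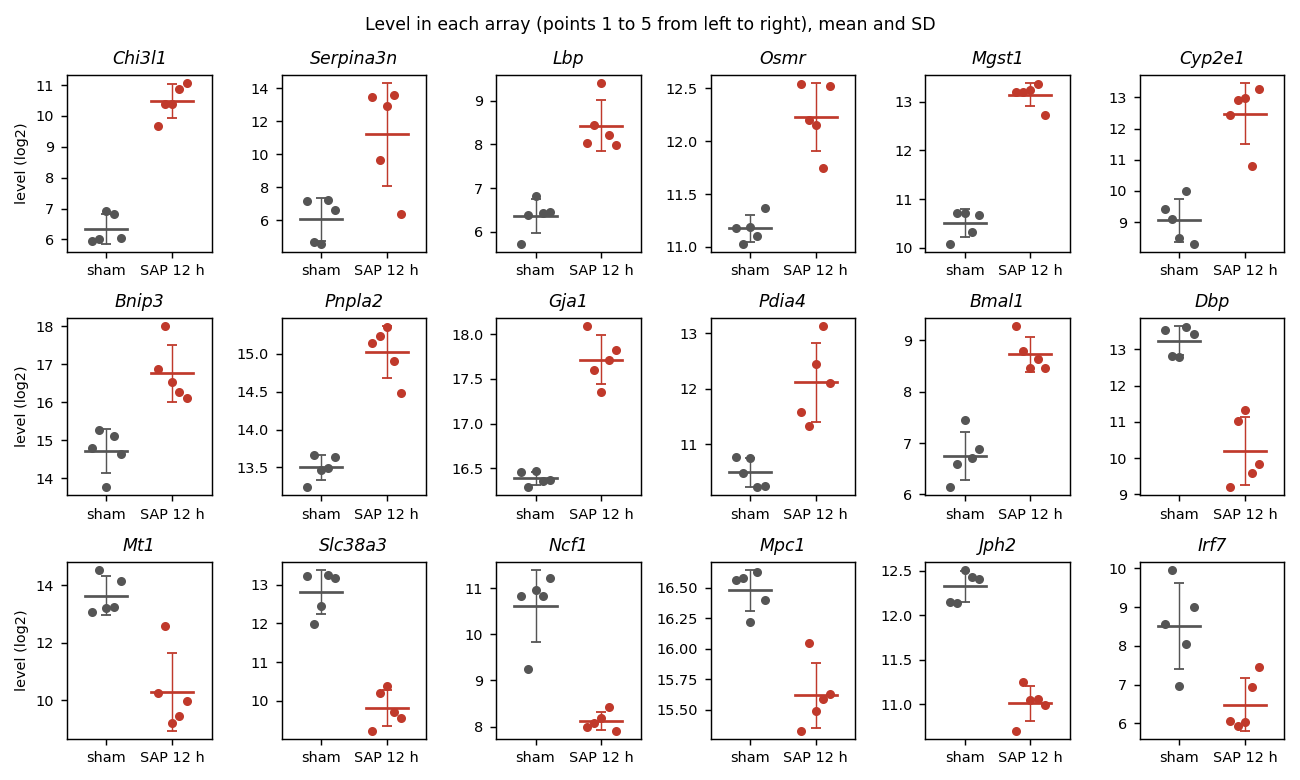
Level (log2) of 18 genes in sham and SAP 12 h hearts; points are replicates 1 to 5 from left to right, lines the means and bars the SD. Serpina3n and Irf7 overlap between the groups, and the other 16 do not.

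Genes of protein folding in the endoplasmic reticulum rose together. When unfolded protein gathers there, sensor proteins activate transcription factors, among them Xbp1 and Atf6, that raise chaperones; a composite promoter motif, the ER stress response element, is where Atf6 and its partner NF-Y bind. Of 26 genes of this response 10 rose and 1 fell, with 24 positive differences and a median of 0.44. The promoters of 8 of the called genes were searched for the element, spelled CCAAT, any 9 bases and then CCACG, on both strands from 250 bases before to 50 bases after the start. It was in 5 of the 8, against 21 of all 27457 promoters (0.0765%). These genes were chosen with their values known, and the match is a description of the sequence. The 5 promoters are shown because they share the element. Each line gives the 250 bases before the start, 5′ to 3′ on the strand of the gene (RefSeq, GRCr8), with the element in capitals on either strand. The locations are chr3:38452766-38453015 (+ strand) for Hspa5, chr7:23012294-23012543 (- strand) for Hsp90b1, chr15:102432417-102432666 (+ strand) for Dnajc3, chr14:84604373-84604622 (+ strand) for Xbp1 and chr7:121789134-121789383 (+ strand) for Creld2.
Hspa5: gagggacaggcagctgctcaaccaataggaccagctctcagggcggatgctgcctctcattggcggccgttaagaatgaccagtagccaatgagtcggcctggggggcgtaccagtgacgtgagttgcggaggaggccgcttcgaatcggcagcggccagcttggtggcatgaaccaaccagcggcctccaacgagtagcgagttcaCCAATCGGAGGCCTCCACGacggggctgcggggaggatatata
Hsp90b1: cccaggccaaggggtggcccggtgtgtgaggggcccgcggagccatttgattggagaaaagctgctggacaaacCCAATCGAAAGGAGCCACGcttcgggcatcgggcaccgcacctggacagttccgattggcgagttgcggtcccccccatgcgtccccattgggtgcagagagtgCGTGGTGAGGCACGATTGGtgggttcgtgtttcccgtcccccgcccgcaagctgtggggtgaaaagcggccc
Dnajc3: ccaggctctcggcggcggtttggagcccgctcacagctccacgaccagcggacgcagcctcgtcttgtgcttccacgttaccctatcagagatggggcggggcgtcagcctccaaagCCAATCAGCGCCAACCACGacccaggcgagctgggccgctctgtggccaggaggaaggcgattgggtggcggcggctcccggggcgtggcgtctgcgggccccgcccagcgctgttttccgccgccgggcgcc
Xbp1: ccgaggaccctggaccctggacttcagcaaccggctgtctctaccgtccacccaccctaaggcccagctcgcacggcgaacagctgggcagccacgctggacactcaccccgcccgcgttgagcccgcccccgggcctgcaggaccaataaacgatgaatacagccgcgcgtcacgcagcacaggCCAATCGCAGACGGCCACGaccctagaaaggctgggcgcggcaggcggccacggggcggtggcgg
Creld2: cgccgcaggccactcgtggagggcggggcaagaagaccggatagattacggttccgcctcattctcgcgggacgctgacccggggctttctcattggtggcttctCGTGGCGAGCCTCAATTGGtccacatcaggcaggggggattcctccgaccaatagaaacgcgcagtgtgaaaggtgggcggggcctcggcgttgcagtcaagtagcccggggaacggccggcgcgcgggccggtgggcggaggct
Hsp90b1 holds 2 copies, on opposite strands, and the other 4 hold 1 each.

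Among the genes with the element, Hspa5, the main folding chaperone BiP, was at 15.15, 15.27, 15.46, 15.29 and 15.53 in sham and at 16.45, 15.65, 16.29, 17.20 and 16.40 at 12 h. All SAP hearts were above all sham hearts, by 1.06 ± 0.22 SE. Hsp90b1, the chaperone GRP94, rose by 1.27 ± 0.24 SE, and Dnajc3, a co-chaperone of BiP, by 1.04 ± 0.16. Xbp1 rose from 12.79 ± 0.19 to 13.68 ± 0.22, and Creld2, a disulfide isomerase-like protein, from 7.30 ± 0.24 to 8.17 ± 0.44. The adjusted p of Creld2 was 0.054 without sham replicate 2. Genes without the element in this window rose too. Pdia4, a disulfide isomerase, had 10.77, 10.47, 10.74, 10.22 and 10.24 in sham and 11.57, 11.32, 12.44, 13.13 and 12.10 at 12 h. Its SAP replicates 3 and 4, which are atrium-rich, were highest, and the rise was 1.62 ± 0.29 SE. Sel1l, which feeds misfolded protein to degradation, rose by 0.64 ± 0.13 SE, and so did Pdia3, another isomerase, by 0.84 ± 0.17, for which no promoter was matched. The gene that fell was Ddit3, the stress transcription factor CHOP, from 10.62 ± 0.21 to 9.36 ± 0.36 without overlap (adjusted p = 2.00e-04). Without the atrium-rich arrays 3 genes of this list rose and 1 fell. Hspa5, Hsp90b1, Xbp1, Creld2 and Sel1l were not called then (adjusted p = 0.067 to 0.0961), whereas 10 rose and 1 fell with the atrial markers as a covariate.

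Chaperones of the cytosol and mitochondria went the other way in part, with 4 of 27 lower and 2 higher (median -0.08). Fkbp4, a co-chaperone of Hsp90 in steroid receptor complexes, was at 11.88, 11.49, 11.92, 11.59 and 12.14 in sham and at 9.86, 9.67, 9.96, 10.52 and 9.82 at 12 h. The groups were separate by about 1 log2 at the closest arrays, and the difference was -1.84 ± 0.19 SE (adjusted p = 3.42e-05). Hspb8, a small heat shock protein that serves autophagy in muscle, fell by 1.01 ± 0.15 SE. The mitochondrial chaperonin pair Hspd1 and Hspe1 fell by 0.69 ± 0.12 SE and 0.56 ± 0.11. Hspe1 lost its call without the atrium-rich arrays (adjusted p = 0.0656), where 3 genes of the list were lower and 0 higher.

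Some genes of autophagy and breakdown were among the rises. Bnip3, which marks mitochondria for removal, was at 14.79, 15.28, 13.77, 15.12 and 14.64 in sham and at 16.88, 18.00, 16.54, 16.26 and 16.12 at 12 h, a 4.11-fold rise (adjusted p = 0.00067) with SAP replicate 2 highest. Map1lc3b, the LC3 protein of the autophagosome membrane, rose by 0.91 ± 0.15 SE and Trim54, a muscle ubiquitin ligase of the MuRF family, by 0.98 ± 0.18. Of 29 genes in this list 5 rose and 1 fell, with a median of 0.20. Ctsl, a lysosomal protease, rose by 1.36 ± 0.22 SE and was the only called gene of 28 lysosomal genes (3.57%). Psmd8, a subunit of the proteasome lid, rose by 1.01 ± 0.20 SE and was 1 of 2 called among 29 proteasome genes (6.9%). Both shares were below the 10.2% of all genes at or above 6. All 29 cytosolic ribosomal protein genes had small positive differences, also after centring or repeated quantile normalization, with a median of 0.29. Of these 3 were called (10.3%, the share of all genes at or above 6 being 10.2%), among them Rps6 (0.47 ± 0.11 SE), whose adjusted p was 0.0502 without SAP 12 h replicate 1 and 0.317 without the atrium-rich arrays, where 0 of the 29 were called and the median was 0.1. The autophagy list had 4 rises and no fall in that setting, and the proteasome list 1 rise.

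Mt1, metallothionein 1, had the largest fall among genes without overlap. Metallothioneins hold zinc and copper, and their genes are switched on by zinc through the factor Mtf1, which binds metal response elements, and by glucocorticoids. A loose spelling of its core, TGCNCNC with any base at each N, was searched for on both strands. It matched 7 times in the searched window of the Mt1 promoter, 5 times in that of Mt2A and 2 times in that of Slc30a1. At least 1 match was in 50.1% of all promoters and at least 7 in 27 (0.0983%), so a match need not be such an element. The Mt1 promoter is shown with the 7 matches in capitals (chr19:10832976-10833225, - strand, RefSeq, GRCr8).
Mt1: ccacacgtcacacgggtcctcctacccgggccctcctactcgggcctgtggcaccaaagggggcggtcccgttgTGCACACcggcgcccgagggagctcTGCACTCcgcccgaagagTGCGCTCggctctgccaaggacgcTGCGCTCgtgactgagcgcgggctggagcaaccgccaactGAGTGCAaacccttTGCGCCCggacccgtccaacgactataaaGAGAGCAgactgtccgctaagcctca
The level of Mt1 was 13.06, 14.55, 13.20, 13.25 and 14.17 in sham and 10.26, 12.59, 9.20, 9.44 and 9.96 at 12 h. SAP replicate 2 came closest to sham, and the fold was 10.2 lower (-3.36 ± 0.47 SE, adjusted p = 0.000372). Mt2A, the second metallothionein, was at 15.10, 16.61, 15.07, 15.38 and 16.22 in sham and 14.87, 16.56, 14.71, 13.64 and 13.58 at 12 h. Those groups overlapped, and the difference of -1.0 ± 0.44 SE was not called (adjusted p = 0.257). Zinc importers of the plasma membrane rose slightly, Slc39a1 by 0.65 ± 0.14 SE and Slc39a6 by 0.66 ± 0.14. The SAP arrays of Slc39a1 lay between 8.66 and 8.79. In the list of metallothioneins and zinc transporters 3 of 22 rose and 1 fell. Both importers lost their calls without the atrium-rich arrays (adjusted p = 0.0554 and 0.0988), so that no rise of the list was left, while Mt1 kept its call (adjusted p = 0.0173).

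Of 22 glucocorticoid-induced genes 3 rose and 2 fell (median 0.10), so the list had no common direction. Dusp1, a MAP kinase phosphatase that glucocorticoids and stress induce, read 15.45, 13.98, 14.73, 14.44 and 14.18 in sham and 13, 14.05, 12.65, 13.07 and 12.57 at 12 h, a difference of -1.49 ± 0.29 SE in which SAP replicate 2 overlapped sham. Sult1a1, a sulfotransferase for phenols, rose from 12.84 ± 0.36 to 14.10 ± 0.39. Immediate early genes counted 1 rise and 3 falls of 28. Atf3, a stress transcription factor, was at 7.81, 7.34, 10.08, 7.05 and 8.29 in sham and at 5.74 to 6.83 at 12 h. Sham replicate 3 was high, and the adjusted p of 0.0197 became 0.0512 without sham replicate 5 and 0.0508 without SAP 12 h replicate 5. Myc, the growth-promoting transcription factor, rose by 0.94 ± 0.22 SE. Dusp1, Atf3 and Myc lost their calls without the atrium-rich arrays (adjusted p = 0.0594, 0.116 and 0.0934), and no immediate early gene was called then. Their differences were -1.48, -1.45 and 1.00 in that setting, in place of -1.49, -1.86 and 0.94.

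Clock genes of opposite phase moved in opposite directions. In the clock, Bmal1 with Clock or Npas2 activates genes through E-boxes, and the products of these genes, Per and Cry proteins, shut the activators off; Dbp, Tef and Ciart are further targets. The hour of day of collection is not given, so time of day and SAP cannot be told apart for these genes. The same holds for any other gene of the comparison that varies with the hour of day, metabolic genes among them. The E-box CACGTG was in 2 of 10 clock gene promoters in the searched window, with 3 copies in Ciart and 1 in Tef, against 6.65% of all promoters. At least 3 copies were in 17 promoters (0.0619%). The core motif of the ROR and REV-ERB receptors, AGGTCA, was in 1 of 6 clock gene promoters (Bmal1), against 15.7% of all. The Ciart promoter (chr2:186112247-186112496, - strand, RefSeq, GRCr8) is shown with the copies in capitals.
Ciart: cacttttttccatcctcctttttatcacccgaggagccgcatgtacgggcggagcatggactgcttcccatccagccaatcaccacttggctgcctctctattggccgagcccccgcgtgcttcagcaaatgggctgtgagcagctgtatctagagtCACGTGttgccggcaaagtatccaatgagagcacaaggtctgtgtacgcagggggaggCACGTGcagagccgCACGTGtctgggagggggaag
Ciart, a repressor of Clock and Bmal1, was at 7.39, 7.07, 6.92, 7.96 and 7.38 in sham and at 4.88, 6.77, 5.87, 5.21 and 5.01 at 12 h, a difference of -1.80 ± 0.30 SE. Dbp had the widest swing, with 13.54, 12.81, 12.79, 13.62 and 13.41 in sham and 9.20, 11.02, 11.32, 9.59 and 9.84 at 12 h. SAP replicates 2 and 3 were the least changed in both genes, and the fold of Dbp was 8.22 lower (adjusted p = 7.7e-05). Bmal1 went from 6.14, 6.59, 7.44, 6.70 and 6.89 up to 9.28, 8.79, 8.46, 8.64 and 8.47 (1.98 ± 0.25 SE).

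Clock rose by 1.32 ± 0.19 SE and Npas2 by 1.00 ± 0.23, so that all 3 activators were called higher. The repressors Per2 and Per3 fell by 1.11 ± 0.20 SE and 1.37 ± 0.24. In the core list this made 3 rises and 2 falls of 13. In the list of clock outputs 7 of 13 fell and none rose, with a median of -0.84. Beside Dbp and Ciart these included the transcription factor Tef (-1.59 ± 0.30 SE), Noct, which removes a phosphate from nicotinamide cofactors (-1.95 ± 0.34), the deubiquitinase Usp2 (-1.77 ± 0.26) and the mitotic kinase Wee1 (-1.04 ± 0.20). The pyruvate dehydrogenase phosphatase Pdp1 fell by 0.84 ± 0.18 SE. Wee1 lost its call without the atrium-rich arrays (adjusted p = 0.0811).

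The lipase genes Pnpla2 and Lipe rose and Dgat2, a gene of triglyceride synthesis, fell, in a list that moved both ways. Pnpla2, adipose triglyceride lipase, read 13.24, 13.66, 13.47, 13.49 and 13.64 in sham and 15.14, 15.23, 15.35, 14.90 and 14.48 at 12 h, a 2.87-fold rise (adjusted p = 4.83e-05) without overlap. Lipe, hormone-sensitive lipase, rose from 8.08 ± 0.23 to 9.21 ± 0.61. Cidea, a lipid droplet protein, rose by 0.81 ± 0.17 SE, with SAP replicates 3 and 4 highest. Dgat2, which makes the last step of triglyceride synthesis, was at 11.19, 9.93, 9.96, 10.19 and 10.31 in sham and at 8.62, 7.84, 8.06, 8.32 and 7.60 at 12 h (-2.23 ± 0.26 SE). In this list 4 of 25 rose and 3 fell, with 6 positive differences and a median of -0.11.

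Acot1 and Acot2, cytosolic and mitochondrial thioesterases that split long fatty acyl-CoA and are targets of PPAR alpha, each rose by 1.13, with SEs of 0.13 and 0.12. These 2 are near-identical paralogs, and the probes may not separate them. Acot11, a thioesterase of the same enzyme class, fell by 1.80 ± 0.23 SE. Of 22 PPAR alpha and fasting targets 3 rose and 1 fell (median 0.25). None of the 23 genes of mitochondrial fatty acid oxidation was called by limma, 10 had an unadjusted p under 0.05 and 0 were called with the trend and robust settings. Hadhb, a subunit of the trifunctional enzyme of that pathway, was at 17.65 ± 0.21 and 17.99 ± 0.24 (adjusted p = 0.188). Cidea lost its call without the atrium-rich arrays (adjusted p = 0.14), where the triglyceride list had 2 rises and 1 fall, the PPAR alpha list 2 rises and no fall, and the oxidation list a median of -0.02 in place of 0.09.

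Of the genes of glucose use, 10 in the lists of uptake and glycolysis fell, while the glycolytic list as a whole had a median near 0. Slc2a4, the insulin-regulated glucose transporter GLUT4, was at 13.97, 13.83, 13.64, 14.19 and 14.00 in sham and at 12.53, 13.78, 12.30, 12.10 and 12.88 at 12 h. Hk2, the muscle hexokinase, had the same odd array, with 8.24, 10.55, 8.59, 8.16 and 8.66 at 12 h against 10.08 to 10.84 in sham. SAP replicate 2 overlapped sham for both, and the differences were -1.21 ± 0.22 SE and -1.70 ± 0.33. Further along the pathway, the phosphofructokinase Pfkm fell by 0.80 ± 0.16 SE, Pgk1 by 0.67 ± 0.13, Pgam2 by 0.95 ± 0.13, the muscle enolase Eno3 by 1.31 ± 0.30 and the pyruvate kinase Pkm by 0.67 ± 0.11. Glycolytic enzymes counted 6 falls and no rise among 23, with 7 positive differences and a median of -0.03, and glucose uptake and phosphorylation 4 falls and 1 rise among 17, with a median of -0.24. Gys1, muscle glycogen synthase, fell by 1.05 ± 0.19 SE and was the only called gene of 17 in glycogen metabolism. Hk2 lost its call without the atrium-rich arrays (adjusted p = 0.0785), and the glycolytic list then had 5 falls and 1 rise. In that setting the uptake list had 2 falls and no rise, and its median moved from -0.24 to -0.06.

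Several genes of pyruvate entry into mitochondria and of the steps after it fell. Mpc1 and Mpc2 form the carrier that brings pyruvate into the mitochondrion. Mpc1 read 16.56, 16.58, 16.22, 16.63 and 16.40 in sham and 15.33, 16.05, 15.49, 15.59 and 15.63 at 12 h (-0.86 ± 0.13 SE, adjusted p = 8.00e-04). Mpc2 fell by 0.77 ± 0.16 SE, and neither gene overlapped. Dlat, a core subunit of pyruvate dehydrogenase, fell by 0.72 ± 0.16 SE, Dlst and Ogdh of the oxoglutarate dehydrogenase complex by 0.70 ± 0.14 and 0.57 ± 0.13, and the isocitrate dehydrogenase subunit Idh3a by 0.52 ± 0.11. In this list 7 of 25 fell and 1 rose, with 4 positive differences and a median of -0.24. Dlat, Dlst, Ogdh and Idh3a lost their calls without the atrium-rich arrays (adjusted p = 0.0734 to 0.164), as did 1 further fall that is not named here. The list then had 2 falls, both of the carrier genes, and 1 rise.

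Some subunits of the respiratory chain fell, by small amounts. Of 32 genes 7 fell, none rose and 3 differences were positive, with a median of -0.32. Ndufs8 of complex I was at 14.57, 14.60, 14.87, 14.69 and 15 in sham and at 13.96, 14.03, 13.79, 13.96 and 13.78 at 12 h (-0.84 ± 0.12 SE). Cyc1, cytochrome c1 of complex III, fell by 0.80 ± 0.13 SE and Ndufb10 of complex I by 0.71 ± 0.14. Ribosomal proteins of the mitochondrion were lower in 6 of 24 and higher in none (median -0.41), a list in which 1 difference was positive. Mrpl12 led with a fall from 11.42 ± 0.39 to 10.23 ± 0.15, followed by Mrpl13 (-0.84 ± 0.14 SE) and Mrpl34 (-0.62 ± 0.14). Genes of mitochondrial division fell too, Mtfp1 by 1.09 ± 0.18 SE and the dynamin Dnm1l by 0.61 ± 0.14, among 4 falls in 24 genes of biogenesis and dynamics. Slc25a5, an ADP/ATP carrier, fell by 0.70 ± 0.13 SE and was 1 of 2 called among 25 mitochondrial carriers. That share was 8%, beside 5.77% of all genes and 10.2% of those at or above 6. Without the atrium-rich arrays 6 respiratory chain genes, 4 mitochondrial ribosomal genes, 2 of biogenesis and dynamics and 3 carriers were called lower.

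**Figure D4:**
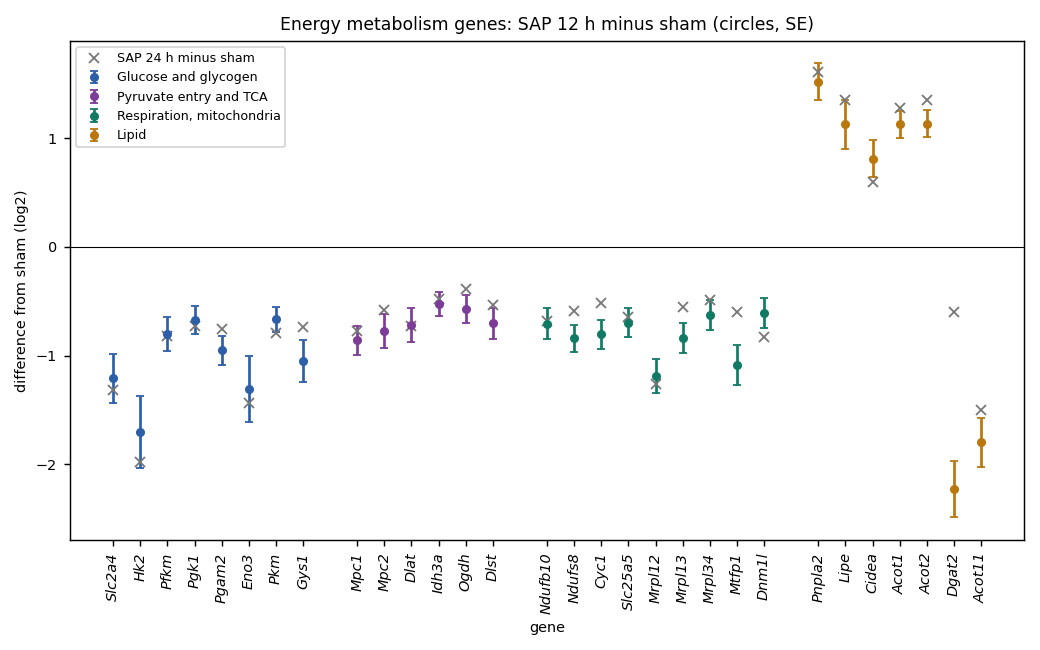
Difference from sham (log2) for 30 named genes of glucose, pyruvate, mitochondrial and lipid metabolism; circles are SAP 12 h with the SE, and grey crosses SAP 24 h. At 12 h Pnpla2, Lipe, Cidea, Acot1 and Acot2 lie above 0 and the other 25 below it.

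Several detoxifying enzymes rose. Cyp2e1, a cytochrome P450 that oxidizes ethanol, ketones and fatty acids, was at 9.41, 9.09, 8.48, 10.01 and 8.31 in sham and at 12.44, 12.90, 12.99, 10.79 and 13.28 at 12 h. SAP replicate 4 was the lowest of its group and still above all sham hearts, and the fold was 10.7 (3.42 ± 0.45 SE, adjusted p = 0.000224). Among 24 genes of the P450 and retinoid list 1 rose and 1 fell. Mgst1, a membrane-bound glutathione transferase, read 10.08, 10.71, 10.71, 10.33 and 10.67 in sham and 13.21, 13.21, 13.25, 13.37 and 12.73 at 12 h. The SAP arrays lay close together and far above sham, a 6.29-fold rise with an adjusted p of 3.59e-06. Of 35 glutathione and NRF2 target genes 8 rose and none fell (median 0.36). They included Gsta1 (1.62 ± 0.30 SE), Gstt2 (1.41 ± 0.22) and Gstm1 (0.89 ± 0.16), transferases of different classes, of which Gsta1 and Gstm1 belong to families with near-identical copies. Gsta1 lost its call without the atrium-rich arrays (adjusted p = 0.0918), and 5 of the 35 were called.

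Iron genes counted 6 rises and 1 fall among 27, with a median of 0.24. Steap4, a metalloreductase, rose from 9.90 ± 0.30 to 11.21 ± 0.47, and Ftl1, the light chain of the iron store ferritin, from 13.02 ± 0.29 to 13.89 ± 0.37. Alas1, which starts heme synthesis, fell by 1.29 ± 0.25 SE. All 3 lost their calls without the atrium-rich arrays (adjusted p = 0.116, 0.0801 and 0.0909 for Ftl1, Steap4 and Alas1), where 1 gene of the list was called. Abca1, which exports cholesterol, and Mylip, which degrades the LDL receptor, are both targets of the sterol sensor LXR. They rose by 1.32 ± 0.24 SE and 1.25 ± 0.17 and were the only called genes of 21 in cholesterol synthesis and uptake. The share was 9.52%, beside 5.77% of all genes and 10.2% of those at or above 6.

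Slc41a3, a magnesium transporter of mitochondria, was among the largest rises, with 8.47, 9.11, 8.50, 9.34 and 9.13 in sham and 12.79, 11.88, 11.19, 11.56 and 12.22 at 12 h (8.10-fold, adjusted p = 5.42e-05). Slc38a3, which carries glutamine across the plasma membrane, was among the largest falls. It read 13.22, 11.99, 12.46, 13.26 and 13.18 in sham and 9.22, 10.19, 10.38, 9.71 and 9.56 at 12 h. The groups stayed apart by more than 1 log2 and the fold was 8.06 lower (adjusted p = 6.35e-06). It was the 1 fall beside 4 rises among 30 genes of amino acid transport and glutamine metabolism, the rises including the taurine transporter Slc6a6 (1.03 ± 0.23 SE). Creatine and purine genes counted 3 rises and 3 falls among 20. The ectonucleotidase Enpp3 rose from 8.79 ± 0.49 to 10.94 ± 0.28, while the brain-type creatine kinase Ckb fell by 1.52 ± 0.24 SE and Gamt, which makes creatine, by 0.98 ± 0.19. Without the atrium-rich arrays all 4 rises of the amino acid list lost their calls, Slc6a6 among them (adjusted p = 0.118), and the fall of Slc38a3 was called. The creatine and purine list had 2 rises and 2 falls then.

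Genes of the contractile apparatus changed in both directions. Of 24 sarcomere genes 4 rose and 2 fell (25%, the share of all genes at or above 6 being 10.2%), with a median of -0.13. Myot, the Z-disc protein myotilin, was at 7.17, 8.56, 8.31, 7.93 and 8.50 in sham and at 11.37, 12.59, 9.03, 9 and 8.99 at 12 h. Its rise of 2.10 ± 0.54 SE came mostly from SAP replicates 1 and 2, and the adjusted p of 0.0297 became 0.0834, 0.0524 and 0.0668 without sham replicates 1, 3 and 4 and 0.0856 without SAP 12 h replicate 1. The Z-disc proteins Csrp3 and Pdlim5 rose by 0.65 ± 0.13 SE and 0.68 ± 0.13. Calcium handling genes counted 4 falls and no rise among 26, with a median of -0.20. Jph2, junctophilin 2, which holds the sarcoplasmic reticulum against the T-tubule, was at 12.15, 12.13, 12.51, 12.43 and 12.41 in sham and at 10.70, 11.25, 11.04, 11.06 and 10.99 at 12 h (-1.32 ± 0.14 SE, adjusted p = 4.83e-05). Casq2 and Hrc, which bind calcium inside the sarcoplasmic reticulum, fell by 0.71 ± 0.16 SE and 0.55 ± 0.13. All 3 were still called without the atrium-rich arrays, where the sarcomere list had 3 rises and no fall.

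Ion channel genes moved both ways, with 2 rises and 4 falls among 27. The pacemaker channel Hcn2 fell from 8.98 ± 0.27 to 7.30 ± 0.79, and Atp1b1, the beta subunit of the sodium pump, by 0.53 ± 0.10 SE. The potassium channels Kcna4 and Kcnj5 rose by 1.01 ± 0.19 SE and 1.15 ± 0.26. Kcnj5 takes part in the acetylcholine-gated current of atrial cells, and its SAP arrays read 11.11, 9.45, 11.07, 11.32 and 10.26 against 9.32 to 9.64 in sham. Gja1, Cx43, the main gap junction protein of ventricular muscle, was at 16.46, 16.29, 16.47, 16.36 and 16.37 in sham and at 18.09, 17.60, 17.35, 17.71 and 17.82 at 12 h (1.32 ± 0.18 SE, adjusted p = 0.000305). With Cdh2, N-cadherin (0.85 ± 0.15 SE), it made 2 rises and no fall among 15 genes of the intercalated disc. This share of 13.3% was near the 10.2% of all genes at or above 6. In that list 5 differences were positive and the median was -0.04. Grk5, a kinase that desensitizes adrenergic receptors, rose from 9.04 ± 0.18 to 10.39 ± 0.28. Pde3a, which breaks down cAMP, rose by 0.69 ± 0.16 SE, while Prkaca, the catalytic subunit of protein kinase A, fell by 0.61 ± 0.12. Kcnj5, Atp1b1 and Pde3a lost their calls without the atrium-rich arrays (adjusted p = 0.236, 0.137 and 0.0727). In that setting the channel list had 1 rise and 1 fall, the list of adrenergic and cAMP genes 1 rise and 1 fall in place of 2 and 2, and the intercalated disc list 2 rises and 1 fall.

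Tubulin genes that fell were Tuba4a, Tuba8 and Tubg1, 3 of 26 (11.5%) in a list with no rise, a share near the 10.2% of all genes at or above 6. Tuba4a, an alpha-tubulin, was at 16.09, 15.21, 15.53, 16.20 and 15.90 in sham and at 12.86, 13.15, 13.30, 13.81 and 14.29 at 12 h, a 4.94-fold fall (adjusted p = 0.000366). Tuba8 fell from 12.56 ± 0.43 to 10.92 ± 0.23 and the microtubule-nucleating gamma-tubulin Tubg1 by 0.65 ± 0.15 SE. Alpha-tubulin genes are close paralogs, so their probes may share signal.

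Proteases that remodel the matrix rose or fell, and so did single matrix proteins. Mmp14, a membrane-bound metalloproteinase, read 5.74, 5.57, 6.05, 5.12 and 5.72 in sham and 7.96, 7.90, 7.75, 7.23 and 6.57 at 12 h. It left the background range in all 5 SAP hearts, by 1.84 ± 0.23 SE. Adamts5, a proteoglycan-cutting protease, rose by 1.16 ± 0.15 SE, while Mmp15 fell by 1.25 ± 0.24. With Timp1 and Mmp8 this gave 4 rises and 1 fall among 23. Of 13 collagens 2 fell and none rose, and Col14a1, a collagen on fibril surfaces, fell by 1.64 ± 0.38 SE with SAP replicate 3 (8.77) inside the sham range. Lgals3, the lectin galectin 3 of macrophages and injured myocardium, rose from 9.41 ± 0.18 to 10.72 ± 0.21 (adjusted p = 3.56e-05). It was the only rise, beside 1 fall, among 24 genes of cardiac stress and injury. The share called there was 8.33%, against 5.77% of all genes and 10.2% of those at or above 6. Among 9 fibroblast markers Tcf21, a transcription factor, rose by 0.86 ± 0.19 SE and none fell, while the list median was -0.73. Mmp15 and Tcf21 lost their calls without the atrium-rich arrays (adjusted p = 0.112 and 0.372). In that setting 2 fibroblast markers and 4 collagens were called lower and none of either list higher. With the atrial markers as a covariate 1 fibroblast marker was higher, 2 were lower and 5 collagens were lower.

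Single genes of growth signalling fell, in lists whose share of calls was near that of genes in general. It was 11.5% for angiogenesis and 10.7% for insulin and IGF, beside 10.2% of all genes at or above 6. For cell cycle, with 13 of 29 genes at or above 6, it was 6.9%, beside 5.77% of all genes. Vegfb, an endothelial growth factor made by heart muscle, fell by 0.82 ± 0.13 SE, 1 of 3 falls and no rise among 26 genes of angiogenesis. Akt1, the kinase of insulin signalling, was at 14.19, 14.29, 13.93, 14.03 and 14.80 in sham and at 13.04, 13.62, 13.19, 13.29 and 13.26 at 12 h, 1 of 3 falls and no rise among 28. The D-type cyclins Ccnd2 and Ccnd3, which start the cell cycle, fell by 1.23 ± 0.25 SE and 0.90 ± 0.13 and were the only called genes of 29 in cell cycle and DNA replication. Other genes among the 15 largest called rises and the 15 largest called falls without overlap between the groups were the synaptic adhesion protein Clstn2 (2.07 ± 0.34 SE), the leucine zipper protein Tsc22d4 (-1.69 ± 0.24) and the ubiquitin ligase Trim16 (-1.90 ± 0.48). Trim16 had 1 SAP heart near sham, replicate 1 at 7.83 against 5.79 to 6.34, and its adjusted p of 0.0259 became 0.0556 to 0.0676 without sham replicates 3, 4 or 5 or SAP 12 h replicates 3 or 5. Ccnd2 and Trim16 lost their calls without the atrium-rich arrays (adjusted p = 0.074 and 0.248).

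Lists without a single call by limma included TGF-beta and BMP signalling, with 0 of 31 and 7 at an unadjusted p under 0.05, and p53, growth arrest and apoptosis, with 0 of 26 and 4. The aminoacyl-tRNA synthetases (0 of 19, 3 unadjusted) and the catabolism of ketone bodies and branched-chain amino acids (0 of 20, 6 unadjusted) had none either. With the trend and robust settings the counts of these 4 lists were 0, 0, 1 and 1. Without the atrium-rich arrays 1 gene of the TGF-beta list was called lower and 1 of the ketone and amino acid list higher. The atrial and hepatocyte markers had none, and of the 13 hepatocyte markers, whose list mean was 4.33 to 4.5 in sham and 4.40 to 4.59 at 12 h, 1 had an unadjusted p under 0.05 and 0 were called with the trend and robust settings.

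**Figure D5:**
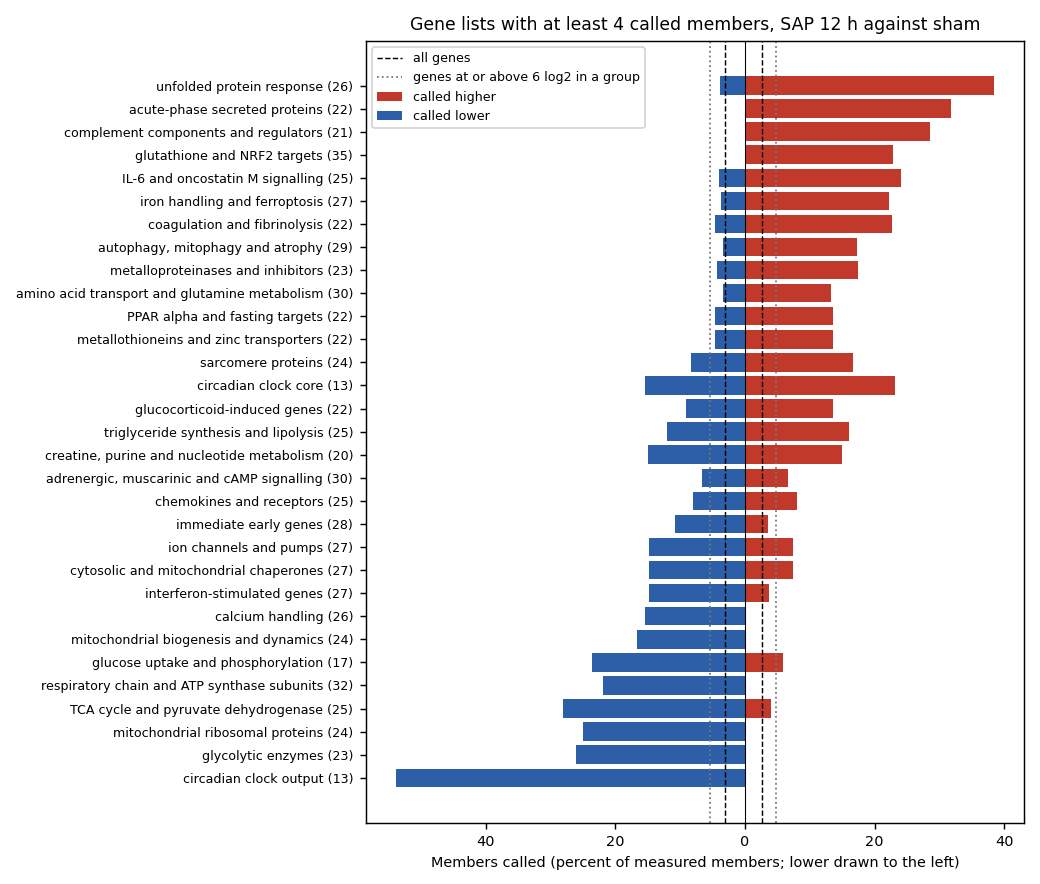
Share of measured members called higher (right) and lower (left) at 12 h, in percent, for the 31 gene lists of function with at least 4 called members (number measured in brackets); dashed lines mark the shares of all genes, 2.68% higher and 3.09% lower, and dotted lines those of genes at or above 6, 4.82% and 5.43%. The unfolded protein response and acute-phase lists lead the rises, and the clock output list the falls.

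Values at 24 h, measured against the same sham arrays, are set beside those at 12 h for some of the named genes. These were chosen for their change at 12 h. The 12 h arrays are not part of the 24 h difference from sham, which favours a smaller value at 24 h. The sham arrays are part of both differences from sham, which favours a change at 24 h in the same direction. Of all genes 570 (3.79%) were called at 24 h against sham and 128 (0.851%) at 24 h against 12 h. All SAP 24 h arrays were low in atrial transcripts, with Myl4 at 4.41 to 5.16 and Sln at 4.29 to 6.11. Sham and SAP 12 h each held atrium-rich arrays. The part of tissue composition in the differences between 24 h and the other groups was not tested. Chi3l1 differed from sham by 4.14 at 12 h and 1.28 at 24 h, Timp1 by 2.08 and -0.34, Lbp by 2.06 and 0.04, and Cd14 by 1.5 and -0.06. For these 4 genes the test of 24 h against 12 h was called (adjusted p = 0.00499, 0.00203, 0.00171 and 0.00306). Dbp stood at -3.04 and -0.05 and Bmal1 at 1.98 and 0.07 (adjusted p = 0.000981 and 0.00171 for 24 h against 12 h). In the endoplasmic reticulum group Pdia4 was at 1.62 and 0.26 and Hsp90b1 at 1.27 and 0.16 (adjusted p = 0.0307 and 0.036). For the next genes 24 h against 12 h was not called, which does not show that the times were equal. Bnip3 was at 2.04 and 2.03, Pnpla2 at 1.52 and 1.61, Mt1 at -3.36 and -2.75 and Ncf1 at -2.50 and -2.06. Cyp2e1 was at 3.42 and 4.67.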

How the data were processed

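RNA from rat hearts was measured on an Affymetrix array of transcript clusters, 1 array per sample. The authors deposited log2 values per probe set, made with Affymetrix Expression Console per the submitters' processing notes (no version is named there). The name of the deposited table gives RMA, a background correction, quantile normalization and median polish, and the log2 scale rests on that name. The second deposited table held the same values (largest difference 0). Scanner files were not used here, so the background of each probe is unknown and the number of arrays limits the precision.

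Of 23188 probe sets 15049 carried 1 gene symbol in the platform annotation, 0 several and 8139 none. A gene was represented by its probe set with the highest mean, which gave 15037 genes. limma 3.58.1 in R 4.3.3 fitted the 3 groups on all 15 arrays, and p-values were adjusted by Benjamini-Hochberg over all probe sets. No batch, slide or litter is named in the labels, and p-values measure the spread between these samples.

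The members and gene lists were chosen with earlier results of these data known. Named genes were the 15 largest called rises and falls with no overlap between groups and a mean of at least 6 in a group, up to 6 called members per list with the largest differences, up to 2 of the highest level in lists with under 2 called, and cell type markers. Further members of a list were chosen after their values were seen. List members whose call was lost on leaving out an array are counted but mostly not named. Alternatives changed the scaling, filters, spread estimate, arrays, block, threshold, probe sets per gene, tissue composition and source table. Promoters were matched by symbol to RefSeq (GRCr8).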

Additional observations from a re-analysis of the deposited data

Results flagged for a closer look

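In 18 of 308 groups of 5 arrays looked at, 1 array stood far from the other 4, where chance alone flags about 1 in 20 groups. Among sham arrays, replicate 2 was low for Fcer2 (5.35 against 7.26 to 7.95), Ncf1 (9.25 against 10.83 to 11.23) and Usp2 (10.69 against 11.53 to 11.84). Sham replicate 3 was high for Timp1 (7.87 against 6.29 to 6.51) and low for Trim54 (14.33 against 15.02 to 15.16). Replicate 1 was low for Stat3 (12.4 against 12.73 to 12.86) and replicate 4 high for Pgam2 (15.21 against 14.71 to 14.84).

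Among SAP 12 h arrays, replicate 2 held 5 such values. It was near the sham level for Hk2 (10.55 against 8.16 to 8.66) and Usp2 (10.72 against 9.2 to 9.54), low for Gamt (6.15 against 6.99 to 7.27) and Hrc (14.39 against 14.67 to 14.77), and high for Jak2 (11.53 against 11.41 to 11.44). Replicate 1 was near sham for Trim16 (7.83 against 5.79 to 6.34) and Slc39a6 (7.26 against 7.75 to 7.93). Replicate 5 was low for Mgst1 (12.73 against 13.21 to 13.37) and high for Cxcl9 (6.47 against 5.66 to 5.89). Replicate 4 was high for Creld2 (8.93 against 7.81 to 8.13) and replicate 3 low for Cyc1 (14.79 against 15.22 to 15.28).

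The change from sham differed between 12 h and 24 h for 27 of the named genes, by limma's test of 24 h against 12 h (adjusted p from 3.65e-05 to 0.0481). The log2 difference of 24 h minus 12 h was negative for Chi3l1 (-2.866), Mgst1 (-1.054), Enpp3 (-1.618), Ifitm1 (-1.392), Timp1 (-2.426), Lbp (-2.026), C1qb (-1.21), Osmr (-0.648), Jak2 (-0.76), Cd14 (-1.56), Bmal1 (-1.91), Clock (-1.222), Npas2 (-1.036), Hsp90b1 (-1.114), Pdia4 (-1.364), Dnajc3 (-1.11), Grk5 (-1.09), Gja1 (-0.984), Lgals3 (-1.498), Mmp14 (-1.712), Adamts5 (-0.942) and Tcf21 (-0.958). It was positive for Dbp (2.99), Slc38a3 (1.648), Dgat2 (1.626), Ciart (1.61) and Usp2 (1.236). The genes were chosen for their change at 12 h and the difference holds the same 12 h arrays with the opposite sign, so its direction is favoured by that choice. All SAP 24 h arrays were low in atrial transcripts, and the part of tissue composition in these differences was not tested.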

How the results depend on the processing

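At an adjusted p under 0.01 there were 401 called genes (184 higher, 217 lower), with at least 2-fold 253 (129 and 124), and without the 4 atrium-rich arrays, a fit with 3 arrays per group at 12 h and in sham, 469 (199 and 270), of which 402 were among the 868. Leaving out each of the 15 arrays in turn gave 611 to 930 genes, 296 to 411 higher and 315 to 519 lower. The other alternatives gave 667 to 1031 genes, and with the atrial markers as a covariate 947 were called, 848 of them among the 868. With the replicate number as a block (replicate block) 793 genes were called, 380 higher and 413 lower, 739 of them shared. Same-numbered sham and SAP 12 h arrays deviated from their group means with correlations of 0.0605, -0.0683, 0.258, -0.168 and -0.0414. Sham replicate 3 correlated best with its own number and the other sham arrays with a different one. Pairing by number was thus not evident, which does not show that there is none. Of 151 called genes named with values, 145 kept the call in all 15 fits that leave out an array, and Myot, Trim16, Atf3, Stat3, Creld2 and Rps6 did not. The call was lost for 40 without the atrium-rich arrays, for 0 with the covariate, for 1 (Trim16) with the block, for 4 with the trend and robust settings and for 2 in the fit of 10 arrays. None of the named genes changed sign in any alternative. Signal over background could not be judged without scanner values, and differences of genes near 6 or below may be understated.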
